A study of Mus musculus with 2 samples.

Results

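Aminoacyl-tRNA synthetases were followed gene by gene in scRNA-seq of cultured myeloid-derived suppressor cells (MDSC), as 20 cytosolic genes and 16 genes for the mitochondrial enzymes, whose symbols end in 2. The members were a fixed list of gene symbols, and all 36 were found among the 32285 genes of the count matrices. The matrices listed 35 of them under the listed symbol, and the methionine enzyme, listed as Mars1, under its older symbol Mars. All 36 were among the 11897 genes with enough UMIs to be compared. A UMI is a molecular tag that marks 1 captured RNA, so that copies made by PCR are counted once.

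Bone marrow of female C57BL/6 mice, 10 weeks old and with C57BL/6 also given as genotype, was grown over 4 days in 50 ng/mL GM-CSF plus 50 ng/mL IL-6. Dabrafenib (DAB), a BRAF inhibitor, was present at 1.5 µM in the DAB culture, and the control culture received the same volume of its solvent, DMSO. Each condition was 1 library of the 5′ kit, which tags RNA at its 5′ end, so levels of different genes were compared without dividing by length. How many mice or cultures went into a library was not given in the sources used here. With 1 library per condition no difference could be tested between conditions. The 95% intervals of levels, shares and ratios below are exact Poisson or binomial intervals that cover counting error only. A gene is described as higher or lower where its log2 ratio of DAB over DMSO was past 0.5 in size.

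After filtering, 9032 DMSO cells with 91892912 UMIs and 10477 DAB cells with 139499175 UMIs were kept, with medians of 7478.5 and 9348 UMIs per cell. The libraries shared 152 cell barcodes. Levels are given as CPM, the UMI counts scaled to the same total for each library or class of cells. Over all tested genes the median log2 ratio was -0.0066.

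Each synthetase joins 1 amino acid, or in the case of Eprs a pair of them, to its tRNA, and so sets up the substrate for the ribosome. The cytosolic and the mitochondrial protein synthesis machineries mostly use enzymes from separate nuclear genes, while Gars and Kars each encode the enzyme of both compartments. Uncharged tRNA activates the kinase GCN2, which phosphorylates eIF2α and raises translation of the transcription factor ATF4, and many cytosolic synthetase genes are known ATF4 targets. The paper behind these data examined how DAB acts on GCN2 in MDSC. The comparison below asks how the synthetase genes of each compartment stood in the DAB library.

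Cytosolic synthetase RNA was higher in the DAB library for most of the set. Together the 20 genes rose from 858 CPM (852 to 864) in DMSO to 1519 CPM (1512 to 1525) in DAB, a 1.77-fold ratio of sums. Of the 20 genes, 16 were higher and none was lower, where 13% of all tested genes were higher and 14.5% lower. The median log2 ratio of the 20 genes was 0.94, and 10 of them reached 1.

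The alanine enzyme Aars (ENSMUSG00000031960, chr8:111033144-111057664, plus strand) had the largest ratio of the 36 genes. It had 3618 UMIs or 39.4 CPM in DMSO and 14533 UMIs or 104 CPM in DAB, for a log2 ratio of 1.40 (1.35 to 1.46). Its annotation overlaps that of Exosc6 on the same strand, so reads in the shared stretch may belong to either gene. The tryptophan enzyme Wars (ENSMUSG00000021266, chr12:108860030-108894174, minus strand), which is also a well-known interferon-induced gene, was the least abundant cytosolic member in DMSO. It went from 1313 UMIs or 14.3 CPM to 4991 UMIs or 35.8 CPM, a log2 ratio of 1.32 (1.24 to 1.41). Both intervals lay well above those of the smallest members.

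The branched-chain enzyme Lars, which charges leucine and also takes part in leucine sensing by mTORC1, had 2548 UMIs or 27.7 CPM in DMSO and 9615 UMIs or 68.9 CPM in DAB. Its log2 ratio was 1.31 (1.25 to 1.38). The isoleucine enzyme Iars (ENSMUSG00000037851, chr13:49682100-49734267, plus strand) had 2126 UMIs or 23.1 CPM in DMSO and 7809 UMIs or 56.0 CPM in DAB, for a log2 ratio of 1.27 (1.21 to 1.34). The threonine enzyme Tars (ENSMUSG00000022241, chr15:11382301-11399665, minus strand) had 1884 UMIs or 20.5 CPM in DMSO and 6752 UMIs or 48.4 CPM in DAB, for a log2 ratio of 1.24 (1.17 to 1.31). These 3 intervals overlapped, so their order was not resolved at this depth.

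Further genes with a log2 ratio of 1 or more were those for arginine (Rars, 30.4 to 68.4 CPM, log2 ratio 1.17), tyrosine (Yars, 31.3 to 69.4 CPM, log2 ratio 1.15), asparagine (Nars, 81.4 to 179.8 CPM, log2 ratio 1.14) and methionine (Mars, 22.0 to 48.2 CPM, log2 ratio 1.13). The glycine enzyme Gars (ENSMUSG00000029777, chr6:55038007-55079500, plus strand), which serves both compartments, went from 6809 UMIs or 74.1 CPM to 20734 UMIs or 148.6 CPM, a log2 ratio of 1.0 (0.96 to 1.04). Eprs (ENSMUSG00000026615, chr1:185363044-185428360, plus strand) charges both glutamate and proline and also belongs to the GAIT complex, which represses inflammatory mRNAs in interferon-treated myeloid cells. It went from 7130 UMIs or 77.6 CPM to 19975 UMIs or 143 CPM, a log2 ratio of 0.88 (0.84 to 0.92). Smaller ratios past 0.5 were those of the cysteine enzyme Cars (0.86), the beta and alpha subunits of the phenylalanine enzyme, Farsb (0.70) and Farsa (0.59), the serine enzyme Sars (0.62) and the histidine enzyme Hars (0.55, or 0.47 when class-standardized). Nars was the most abundant cytosolic member in DAB, and Sars, at 105 CPM, the most abundant in DMSO.

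The other 4 cytosolic genes stayed within 0.5. Kars (ENSMUSG00000031948, chr8:111993443-112011323, minus strand), the lysine enzyme of both compartments, had 2415 UMIs or 26.3 CPM in DMSO and 4688 UMIs or 33.6 CPM in DAB, for a log2 ratio of 0.35 (0.28 to 0.43). The valine enzyme Vars had 4578 UMIs or 49.8 CPM and 8767 UMIs or 62.8 CPM, a log2 ratio of 0.34 (0.28 to 0.39). The aspartate enzyme Dars had 8025 UMIs or 87.3 CPM and 12600 UMIs or 90.3 CPM, a log2 ratio of 0.05 (0.01 to 0.09). Its sign turned when the ratio was taken within classes and averaged (-0.02) or over cells of equal weight (-0.15). The glutamine enzyme Qars was the only cytosolic member below 0 over all cells, with 4692 UMIs or 51.1 CPM in DMSO, 6117 UMIs or 43.8 CPM in DAB and a log2 ratio of -0.22 (-0.27 to -0.16).

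**Figure D1:**
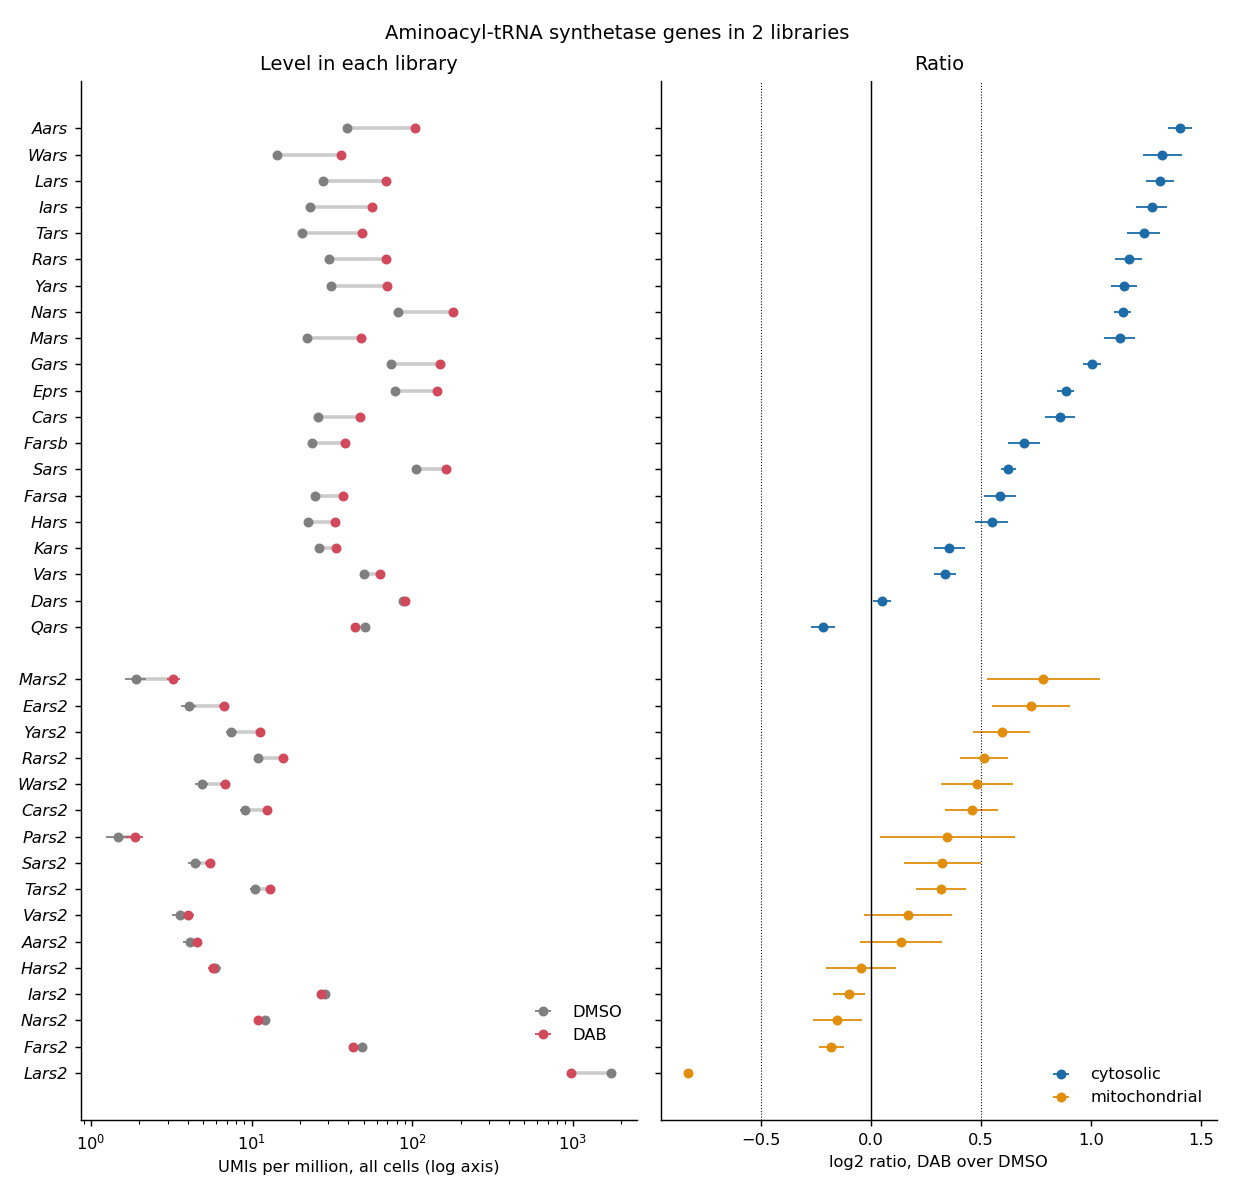
Level of each of the 36 synthetase genes in the DMSO and DAB libraries (left, CPM over all kept cells, log axis) and the log2 ratio of DAB over DMSO with its 95% counting interval (right), with 1 row per gene. The cytosolic genes run from Qars at -0.22 to Aars at 1.40, and the mitochondrial genes from Lars2 at -0.83 to Mars2 at 0.78.

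In mammals 8 of the 20 cytosolic enzymes sit in the multisynthetase complex with the scaffold proteins Aimp1, Aimp2 and Eef1e1. The genes of those 8 enzymes summed to 346 CPM in DMSO and 553 CPM in DAB. Their median log2 ratio was 1.01, and 5 of 8 were higher, where 13% of all tested genes were. The other 12 went from 513 to 966 CPM, with a median of 0.93 and 11 of 12 higher. Complex members thus spanned the range, from Lars and Iars among the 5 largest ratios to Kars, Dars and Qars among the 4 within 0.5. Of the scaffolds, Eef1e1 went from 26.7 to 49.8 CPM (log2 ratio 0.90), Aimp2 from 15.9 to 24.4 CPM (0.62) and Aimp1 from 78.3 to 80.0 CPM (0.03). By catalytic fold, the 9 class I genes had a median log2 ratio of 1.15 with 7 higher, and the 10 class II genes one of 0.66 with 8 higher, Eprs holding both folds.

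The DAB-raised cytosolic genes are known ATF4 targets in part, so the promoter windows were searched for the composite C/EBP-ATF element, the letters TGATGNAA on either strand. The window ran from 250 bases before to 50 bases after each RefSeq transcript start. A site is shown from each of the 5 cytosolic synthetase genes whose window held the element. As the textbook example, the site of the asparagine synthetase gene Asns is added. Another site in the Aars window is not shown. Capitals mark the element, and each 30-base run is 5′ to 3′ on the strand of the gene, from RefSeq on GRCm38.p6. Where the element lies on the other strand, the capitals read as its reverse complement.
Aars, chr8:111033840-111033869, plus strand: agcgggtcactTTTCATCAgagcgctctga
Gars, chr6:55037960-55037989, plus strand: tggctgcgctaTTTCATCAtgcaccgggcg
Iars, chr13:49682126-49682155, plus strand: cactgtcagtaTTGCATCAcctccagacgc
Tars, chr15:11399655-11399684, minus strand: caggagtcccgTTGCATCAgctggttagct
Yars, chr4:129189895-129189924, plus strand: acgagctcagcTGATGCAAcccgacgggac
Asns, chr6:7693214-7693243, minus strand: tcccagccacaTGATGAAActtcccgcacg

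The element was present in 5 of the 13 cytosolic genes with a window (38.5%) and in 0 of 14 mitochondrial genes, where 4.51% of all 27025 genes and 9 of 31 amino acid response genes (29.0%) held it. The 5 cytosolic genes with the element had log2 ratios of 1.0 to 1.40 with a median of 1.24, and the 8 without it -0.22 to 1.13 with a median of 0.60. No window was on file for 7 cytosolic genes (Cars, Hars, Lars, Nars, Rars, Vars and Wars, median 1.14) and for Hars2 and Pars2. A match of letters describes the window and was not set against any measurement of binding.

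The mitochondrial set moved less, and its sum depended on 1 gene. Counted over all 16 genes, 4 were higher and 1 lower, beside 13% and 14.5% of all tested genes, and the median log2 ratio was 0.32. As means over cells of equal weight, 7 of the 16 were past 0.5 in size in place of 5. Lars2 held 91.7% of the UMIs of this set in DMSO and 85.1% in DAB. With Lars2 the sum went from 1894 to 1147 CPM, a log2 ratio of -0.72, and without it from 158 (155 to 160.3) to 171 (169 to 174) CPM, a log2 ratio of 0.12 (0.09 to 0.15). Fars2 and Iars2, both with log2 ratios below 0, weighed heavily in the sum without Lars2. Of its 14488 UMIs in DMSO they had 4441 and 2649, and of its 23904 in DAB 5942 and 3753. The median, in which each gene counts equally, stayed at 0.32 without Lars2.

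Mars2, which charges mitochondrial methionine tRNA, had 174 UMIs or 1.89 CPM in DMSO and 454 UMIs or 3.25 CPM in DAB, for a log2 ratio of 0.78 (0.53 to 1.04). Ears2 charges glutamate in mitochondria, where it also provides the starting product for glutamine tRNA. It had 372 UMIs or 4.05 CPM and 934 UMIs or 6.70 CPM, a log2 ratio of 0.73 (0.55 to 0.90). The tyrosine enzyme Yars2 had 688 UMIs or 7.49 CPM and 1575 UMIs or 11.3 CPM, a log2 ratio of 0.59 (0.46 to 0.72). The arginine enzyme Rars2 was the other higher gene, from 11.0 to 15.7 CPM with a log2 ratio of 0.51. These were genes of low to moderate level, and all 4 intervals lay above 0.

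The remaining genes above 0 were Wars2 (0.48), Cars2 (0.46), Pars2 (0.34), Sars2 (0.32), Tars2 (0.32), Vars2 (0.17) and Aars2 (0.13), for tryptophan, cysteine, proline, serine, threonine, valine and alanine in that order. The histidine enzyme Hars2, whose 5′ end overlaps that of Hars on the opposite strand, was at -0.05 and the isoleucine enzyme Iars2 at -0.10. The asparagine enzyme Nars2 had 1113 UMIs or 12.1 CPM in DMSO and 1519 UMIs or 10.9 CPM in DAB, for a log2 ratio of -0.15 (-0.27 to -0.04). The phenylalanine enzyme Fars2 had 4441 UMIs or 48.3 CPM and 5942 UMIs or 42.6 CPM, a log2 ratio of -0.18 (-0.24 to -0.13). Of the 16 intervals, 9 lay above 0, 4 below and 3 held 0. For the cytosolic genes 19 lay above 0 and 1 below. As means over cells of equal weight, Fars2 (0.05), Iars2 (0.08) and Hars2 (0.13) turned to above 0, and Pars2 (0.81) and Wars2 (0.60) passed 0.5. Aars2 turned to -0.09 when class-standardized, so the signs of these small mitochondrial ratios depended on how cells were weighted.

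Lars2 (ENSMUSG00000035202, chr9:123366927-123462666, plus strand), the mitochondrial leucine enzyme, stood apart in level and direction. It had 159514 UMIs or 1736 CPM in DMSO and 136051 UMIs or 975 CPM in DAB, for a log2 ratio of -0.83 (-0.84 to -0.82). The next mitochondrial genes in DMSO were Fars2 at 48.3 CPM and Iars2 at 28.8 CPM, and no cytosolic gene was above 105 CPM.

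Set against each other by amino acid over all cells, the cytosolic gene had the higher ratio in all 17 pairs, by 0.5 or more in 12 of them. The difference of the log2 ratios had a median of 0.66. It was largest for leucine (2.15, Lars against Lars2), isoleucine (1.37), asparagine (1.30) and alanine (1.27), and smallest for glutamate (0.16, Eprs against Ears2), valine (0.17) and serine (0.30). Eprs and Fars2 each stand in 2 pairs, so the pairs are not all separate. The order within the closest pairs depended on how cells were weighted. Class-standardized, Ears2 (0.88) was above Eprs (0.81). As means over cells of equal weight, Vars2 (0.27) was above Vars (0.25). Per mitochondrial UMI without Lars2 there were 5.44 cytosolic UMIs in DMSO (5.35 to 5.54) and 8.86 in DAB (8.74 to 8.98), and with Lars2 0.453 and 1.32.

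**Figure D2:**
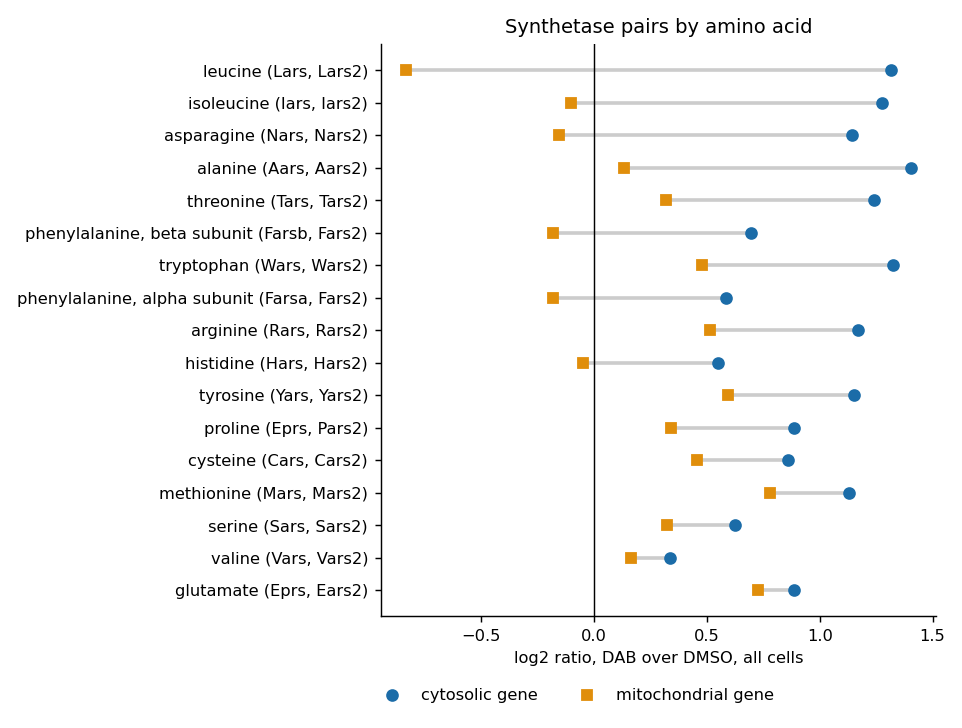
Log2 ratio of DAB over DMSO over all cells (x axis) for the cytosolic gene and the mitochondrial gene of each amino acid, 1 row per pair, sorted by their difference. The cytosolic point lies to the right in all 17 pairs, from a difference of 2.15 for leucine to 0.16 for glutamate.

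The same contrast was seen in the share of cells with any synthetase UMI. With every cell thinned to 1500 UMIs, a cytosolic synthetase UMI was found in 61.9% (60.9 to 63.0) of the 8596 DMSO cells and in 79.0% (78.2 to 79.8) of the 10185 DAB cells. The shares of cells with UMIs of 3 or more different cytosolic genes were 10.7% and 25.4%. For the mitochondrial set without Lars2 the shares of cells with a UMI were 19.2% (18.4 to 20.1) and 21.1% (20.3 to 21.9). The thinning left out 436 DMSO and 292 DAB cells. For Aars alone the thinned shares were 4.53% and 12.6%, against 23.3% and 52.6% before thinning. Every cell uses these enzymes, so no cell type here gives a level for free RNA.

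Cells were grouped into clusters without using the synthetase or amino acid response genes, and named by markers into 10 classes with at least 100 cells in each library. Besides granulocytic and monocytic cells these include B cell-like, basophil- or mast cell-like and dendritic cell-like classes, so values over all cells cover more than MDSC. Clusters holding 40.5% of DMSO and 33.4% of DAB cells were left unnamed and are given by letter. The classes differed in level already in DMSO. The cytosolic sum was highest in granulocyte progenitor-like cells (led by Elane, Ctsg and Prtn3) at 1344 CPM and in B cell-like cells (Cd79a, Igkc) at 1253 CPM, whose intervals overlapped. Mature monocyte-like cells (H2-Aa, H2-Ab1) at 977 and basophil- or mast cell-like cells (Cpa3, Hdc) at 974 CPM came next and were not apart. Immature monocyte-like cells (Mmp12, Spp1) followed at 890 CPM. Chemokine-high granulocyte-like cells (Ccl3) at 745, mature PMN-like cells (Csf3r, Mmp9) at 694 and macrophage-like cells (C1qa, C1qb) at 678 CPM overlapped their neighbours. Most chemokine-high cells in DMSO were of cluster C (332 cells), led by Gpnmb, Ccl3, Atp6v0d2 and Mpeg1. The granulocyte part of that name rests on S100a8 or Csf3r being above the other cells, not on the leading genes. Activated dendritic cell-like cells (Ccr7, Fscn1) at 539 CPM and intermediate granulocyte-like cells (Cd177) at 470 CPM were lowest.

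In DAB the granulocyte progenitor-like cells were again highest at 2218 CPM, followed by mature monocyte-like cells at 1662 and immature monocyte-like cells at 1583 CPM. Basophil- or mast cell-like (1343), B cell-like (1253), chemokine-high (1167) and macrophage-like cells (1126 CPM) each overlapped the next. Intermediate granulocyte-like cells at 948 and mature PMN-like cells at 936 CPM were not apart, and activated dendritic cell-like cells were lowest at 628 CPM. For the mitochondrial genes without Lars2 the levels were closer together, from 77.9 CPM in intermediate granulocyte-like to 202 CPM in progenitor-like cells in DMSO, and from 110 to 230 CPM in DAB in those same classes.

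Intermediate granulocyte-like cells, the class that had the lowest cytosolic level in DMSO, had the largest ratio. Their cytosolic sum went from 470 to 948 CPM, a log2 ratio of 1.01 (0.97 to 1.06), with a median of 1.29 and 17 of 20 genes higher and 0 lower, where 25.5% of all genes tested in the class were higher and 15.1% lower. The class is made of clusters B, I and P, with 907, 826 and 141 DMSO cells and 570, 195 and 442 DAB cells. Cd177 was among the leading genes of each, and the secondary granule genes Camp, Ltf and Ngp were among those of I alone. Of the 10 markers of this class, 5 were raised in B, 8 in I and 5 in P. Cxcr2 was among the leading genes of B and P, and Mmp9 among those of P. Both are on the marker list of mature PMN-like cells, so B and P also carry traits of that class. Within B, I and P the log2 ratios of the sums were 1.04, 1.10 and 0.94. Iars had a log2 ratio of 2.10 here, Aars one of 1.86 and Yars one of 1.83, which were the largest class values of these genes.

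The monocytic and progenitor classes followed. In immature monocyte-like cells the log2 ratio of the cytosolic sum was 0.83 (0.80 to 0.86), with 14 genes higher and 1, Qars at -0.68, lower (12.8% and 19.9% of all genes). In mature monocyte-like cells it was 0.77, with 15 genes higher and 0 lower (17.2% and 21.8%). In macrophage-like cells the log2 ratio was 0.73 (0.62 to 0.84) with 13 higher and 0 lower (13.9% and 22.0%), and in granulocyte progenitor-like cells 0.72 with 15 higher and 0 lower (19.1% and 20%). Wars reached its largest class ratio, 1.88, in the progenitor-like cells, from 71 to 580 UMIs.

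The chemokine-high, basophil- or mast cell-like and mature PMN-like classes were lower again. Chemokine-high cells had a log2 ratio of sums of 0.65 (0.57 to 0.73) with 13 genes higher and 0 lower (17.0% and 17.3% of all genes), basophil- or mast cell-like cells 0.46 with 12 higher and 0 lower (18.4% and 26.7%) and mature PMN-like cells 0.43 (0.35 to 0.52) with 10 higher and 0 lower (18.8% and 10.4%). The libraries drew on the clusters of these classes in different shares. Cluster O gave 19 DMSO and 564 DAB cells of the chemokine-high class, and within its other cluster, C, the log2 ratio was 0.66. Cluster R gave 70 DMSO and 413 DAB cells of the basophil- or mast cell-like class, and cluster W 74 and 118. Mcpt8 was among the leading genes of W and not of R, so the ratio of that class compares unlike mixtures of cells. The mature PMN-like class held clusters D (453 DMSO and 808 DAB cells) and K (194 and 699). There the cytosolic sum went from 732 to 1001 CPM in D and from 639 to 885 CPM in K.

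In activated dendritic cell-like cells the cytosolic sum went from 539 to 628 CPM, a log2 ratio of 0.22 (0.11 to 0.33), with 7 genes higher and 1 lower (16.1% and 20.3% of all genes). In B cell-like cells it was 1252.6 CPM in both libraries, from 844 and 1312 UMIs, with an interval of the log2 ratio from -0.13 to 0.13. Here 4 genes were higher and 2 lower, where 30.7% and 15.6% of all genes passed 0.5 in these 139 and 189 cells. Even so, Lars was higher in B cell-like cells at 1.21 (0.48 to 2.00), from 20 to 72 UMIs. Aars was at -0.19 and Iars at -0.18 there.

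**Figure D3:**
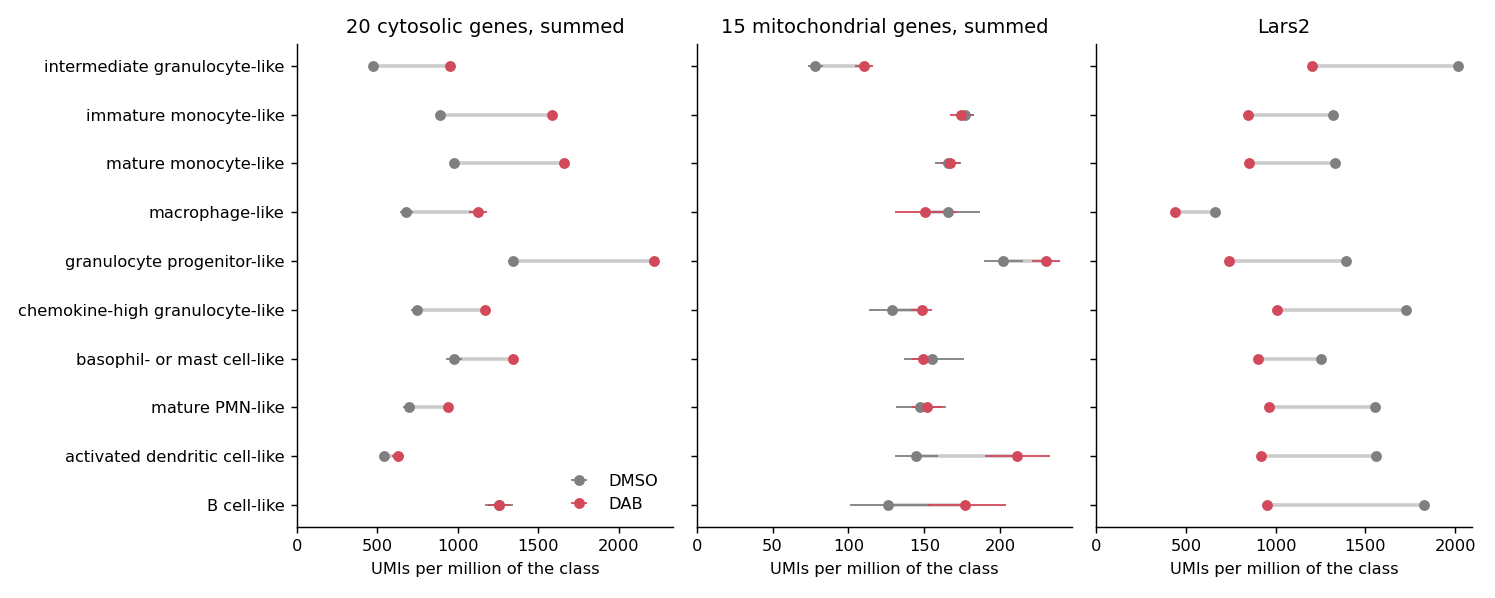
Summed level of the 20 cytosolic genes, of the 15 mitochondrial genes without Lars2, and of Lars2 in 10 cell classes for DMSO and DAB. The 3 panels give CPM of the class on linear axes from 0. The 95% counting intervals are drawn for the summed sets and not for Lars2. The cytosolic level runs from 470 to 948 in intermediate granulocyte-like cells and stays at 1253 in B cell-like cells, while the Lars2 level in DAB lies below that in DMSO in every class, by a log2 ratio past -0.5 in 9 of 10.

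Across the 19 clusters with at least 100 cells in each library, the log2 ratio of the cytosolic sum was 0.5 or more in 14 and between 0 and 0.5 in the others, down to 0.0001 in the B cell-like cluster. The unnamed cluster L had one of 1.05, H one of 0.86 and J one of 0.69. The mitochondrial sum without Lars2 was past 0.5 in 2 of 10 classes, activated dendritic cell-like cells (144 to 211 CPM, log2 ratio 0.55) and intermediate granulocyte-like cells (0.50). In the dendritic class Ears2 alone went from 25.3 to 71.7 CPM, so much of the rise of that sum came from a single gene. B cell-like cells were just inside (126 to 177 CPM, 0.49). The lowest value was -0.14, in macrophage-like cells. The median of the whole mitochondrial set, Lars2 included, was 0.85 in intermediate granulocyte-like cells, and 0.45 with no doublet removal. In that class Cars2, Ears2, Pars2, Rars2, Sars2, Tars2, Vars2, Wars2 and Yars2 were higher, as were 25.5% of all genes tested. Several rested on few UMIs, such as Ears2 (7 and 34) and Pars2 (6 and 22), and the interval of Vars2 held 0. Lars2 was lower there, and the other members were within 0.5. The cytosolic median was above the mitochondrial median without Lars2 in 8 of 10 classes, the exceptions being B cell-like and activated dendritic cell-like cells, and in 17 of 19 clusters.

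Gene by gene, Lars and Wars were higher in 10 of 10 classes, Lars by 0.87 to 1.47 and Wars by 0.71 to 1.88. For Wars in B cell-like cells the UMIs were 4 and 18 and the interval held 0. Aars, Iars, Tars and Mars were higher in 9 of 10, each with B cell-like cells as the exception. Dars was within 0.5 in all 10 and Qars in 9. Kars was past 0.5 in 2 and Vars in 1. Of the mitochondrial genes Ears2 was higher in the 7 of 7 classes where it reached 20 UMIs over both libraries. A class passes that minimum more readily where DAB is high. Ears2 had 1 DMSO and 43 DAB UMIs in chemokine-high cells. In basophil- or mast cell-like cells it had 4 and 42, and the interval held 0. Left out were macrophage-like (7 and 7 UMIs), mature PMN-like (4 and 12) and B cell-like cells (2 and 4). In activated dendritic cell-like cells Ears2 went from 72 to 129 UMIs, a log2 ratio of 1.50 (1.07 to 1.94). Lars2 was below 0 in 10 of 10 classes and past -0.5 in 9, from -0.94 in B cell-like to -0.47 in basophil- or mast cell-like cells.

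**Figure D4:**
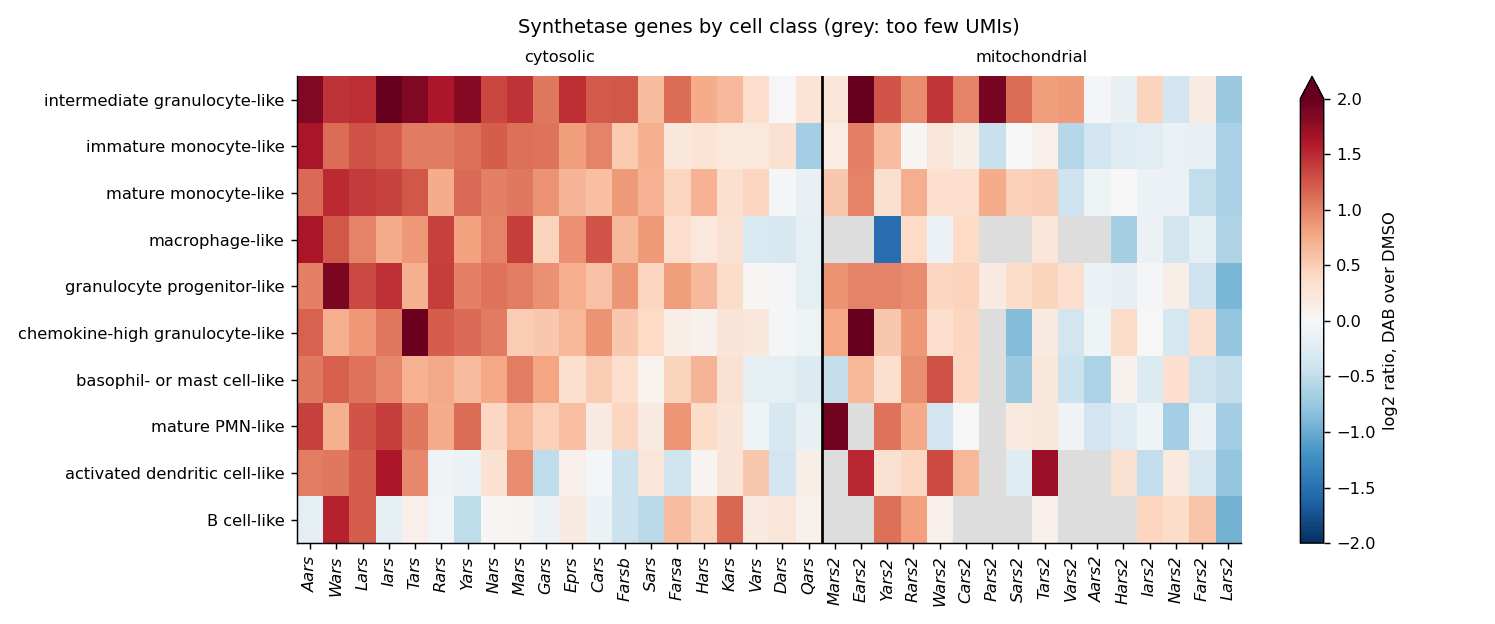
Log2 ratio of DAB over DMSO (colour) for each synthetase gene (columns, cytosolic left and mitochondrial right of the line) in each of 10 cell classes (rows), grey where a gene had too few UMIs. Lars and Wars are raised in all 10 classes, Dars in none, and Lars2 is below 0 in all 10.

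The list of proliferation genes moved with the conditions as well. Over all cells it had a median log2 ratio of -0.37, with 7 of 22 genes lower, beside 14.5% of all tested genes. They were led by Cenpf (-0.85), Bub1 (-0.74) and Hmmr (-0.73). As examples by class, its sum went from 549 to 43.6 CPM in chemokine-high and from 692 to 149 CPM in macrophage-like cells. In intermediate granulocyte-like cells it went from 693 to 618 CPM. The unnamed cluster J, led by Ube2c, Cenpf and Birc5, held a larger share of DAB cells (5.51%) than of DMSO cells (3.99%). The part of these shifts in the synthetase values was not tested.

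The amino acid response list, the known ATF4 target genes outside the synthetases, was given for comparison. It had 27 of 33 genes higher and 2 lower over all cells, beside 13% and 14.5% of all tested genes, with a median log2 ratio of 1.53. The largest were Cth, the transsulfuration enzyme (0.250 to 33.0 CPM, log2 ratio 7.04), the secreted glycoprotein gene Stc2 (5.64 to 56.0 CPM, 3.31) and the glycine transporter gene Slc6a9 (0.642 to 5.18 CPM, 3.01). Its class medians ran from 2.03 in intermediate granulocyte-like cells to 0.27 in activated dendritic cell-like and -0.10 in B cell-like cells. Across the 19 clusters the medians of this list and of the cytosolic synthetases had a Spearman rho of 0.83, and those of this list and the mitochondrial genes without Lars2 one of 0.22. Both lists of a point come from the same cells and totals, so these are descriptions. Eif2ak4, the gene of GCN2, had 26.3 CPM in DMSO and 19.8 CPM in DAB, for a log2 ratio of -0.41.

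**Figure D5:**
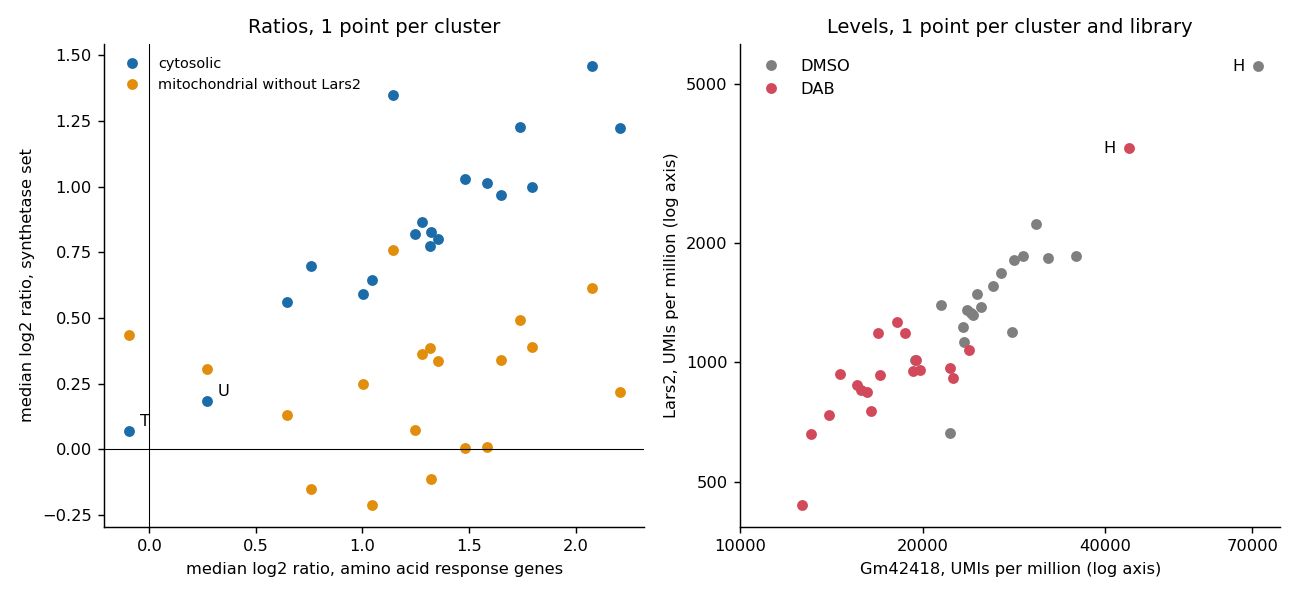
Left, the median log2 ratio of the amino acid response genes (x axis) against that of the cytosolic genes and the mitochondrial genes without Lars2 (y axis), 1 point per set in each of 19 clusters, with the B cell-like (T) and activated dendritic cell-like (U) clusters lettered at the low end. Right, the levels of Gm42418 (x axis) and Lars2 (y axis) in CPM on log axes for the same clusters in each library, with cluster H at the top right of both libraries.

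Other steps of protein synthesis moved less. Of 16 tRNA export and maturation genes 6 were higher, with a median log2 ratio of 0.37. They were led by the tRNA exporter Xpot (20.1 to 44.3 CPM, 1.14), the tRNA methyltransferase subunit Trmt61a (1.07) and the splicing endonuclease subunit Tsen54 (0.98). None of 6 cytosolic elongation genes (median 0.13) and none of 12 mitochondrial translation factor genes (median 0.12) passed 0.5. Of 77 mitochondrial ribosomal protein genes 9 were higher and 2 lower (median 0.24), no larger a share than the 13% and 14.5% of all tested genes, with the largest ratios in Mrps6 (1.08), Mrpl20 (1.01) and Mrps18b (0.99), and of 81 cytosolic ones 1, Rpl3l, was higher (median 0.07). Of 4 genes that clear wrongly charged tRNA, Prorsd1 was lower at -0.56. Of 10 interferon-stimulated genes, listed because Wars is also interferon-induced, Usp18 was higher at 0.86 while Stat2 (-0.70) and Rsad2 (-0.54) were lower, with a median of -0.20.

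The Lars2 counts moved with those of several abundant genes, 1 of them related to ribosomal RNA. These genes lead cluster H together with Lars2 and were chosen after their values were seen. Cluster H is among the 19 clusters compared, so high correlations were partly set by the choice. Gm42418, which RefSeq lists as an 18S rRNA-related pseudogene under the name Rn18s-rs5, held 2.82% of all UMIs in DMSO and 1.73% in DAB, for a log2 ratio of -0.70. Gm15564 went from 182 to 109.7 CPM (-0.73). Across the 19 clusters the levels of Lars2 had a Spearman rho with Gm42418 of 0.84 in DMSO and 0.74 in DAB, with Gm15564 of 0.97 and 0.81, with Cmss1 of 0.82 and 0.84, with Cdk8 of 0.82 and 0.76, with Gphn of 0.75 and 0.75, with Camk1d of 0.63 and 0.60, and with the cytosolic sum of -0.33 and -0.44. With the mitochondrial sum without Lars2 the rho of Lars2 was -0.69 in DMSO and -0.29 in DAB. Cluster H was highest for both Lars2 and Gm42418, with 5566 CPM of Lars2 in DMSO and 3465 CPM in DAB and 71431 and 43759 CPM of Gm42418. The transcript Lars2-201, of 3894 bases, shares a stretch of 72 bases at 98.6% identity with Gm15564-202, at bases 3278 to 3349 inside its 3′ UTR. A longer match, of 196 aligned bases at 80.1% identity, was to AA474408-201, at bases 3163 to 3349 of the same 3′ UTR. No transcript of Gm42418 was among the matches. Whether Lars2 UMIs came from its messenger or from other RNA was not tested.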

How the data were processed

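Single cells were profiled with the 10x 5′ v2 kit, 1 library for each condition. Per the file headers and labels, the deposited values are unnormalized UMI counts for each gene and barcode. The authors made these counts with Cell Ranger 7.0.0 on an mm10 reference, and the sources used here do not state how intron reads or strand were handled. The submitters' notes also name Seurat 4.3.0 and R 4.1.2. The depth was 106792967 UMIs over 9855 barcodes in DMSO and 165506902 over 11631 in DAB. The lowest barcode had 500 UMIs.

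Cells with over 10% mitochondrial UMIs were removed (55 and 89), none was over 4 MADs, and 768 and 1065 simulated-neighbour doublets were removed. Of 400 planted doublets 48.5% were called. The 3000 most variable genes, without member or amino acid response genes, gave 40 principal components after cell cycle regression, aligned by mutual nearest neighbours and clustered by Leiden at resolution 0.9 into 29 clusters. The 15 named clusters were named from marker lists, by a rule set after clusters were seen. UMIs were summed per library and class. The ratio of CPM carries a 95% exact interval, with genes tested at 1 CPM or more and, in classes, at 20 UMIs over both libraries. Where log2 ratios are said to pass, the size is 0.5.

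The members and lists were chosen with earlier results of these data known. Members given with full values are the 5 cytosolic and 3 mitochondrial genes with the largest and the 3 of each set with the smallest ratio, plus Eprs, Gars, Kars and Wars, and of other lists up to 3 with the largest ratio past 0.5. Members discussed by class, and Gm42418, Gm15564, Cmss1, Cdk8, Gphn, Camk1d and Eif2ak4, were named after their values were seen. On simulated data with 200 of 11897 genes changed, 95.3% of the intervals for DAB over DMSO held the true ratio. The counts were drawn from Poisson distributions, the model that the intervals assume, so a share near 95% was set by design. The simulation held no spread between cells, cultures or libraries.

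The alternatives were no cell filter, no doublet removal, median-of-ratios scaling, equal weight for every cell, thinning, class-standardized ratios, other count minimums, a log2 size of 1 and 6 other clusterings. Tools were leidenalg 0.10.2, igraph 0.11.9, blastn 2.17.0+, matplotlib 3.10.9, pandas 2.3.3, scipy 1.17.1, numpy 2.4.6 and Python 3.11.15. 1 promoter sequence is not reported here.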

Additional observations from a re-analysis of the deposited data

Results flagged for a closer look

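Some genes had ratios of opposite sign, each past 0.5 in size and with an interval that left out 0, in a pair of classes. They were picked from all 36 members by the largest and the smallest ratio over 10 classes. Of all genes tested, 15.6% were lower in B cell-like, 20.3% in activated dendritic cell-like and 22.0% in macrophage-like cells. The shares higher were 12.8% in immature monocyte-like, 25.5% in intermediate granulocyte-like and 13.9% in macrophage-like cells. Each class has 1 library per condition, and the difference between classes was not tested. The glycine enzyme gene Gars had a log2 ratio of 1.09 in the immature monocyte-like class and of -0.50 (-0.92 to -0.09) in activated dendritic cell-like cells, where its UMIs numbered 161 in DMSO and 72 in DAB. Sars had a log2 ratio of 0.86 in macrophage-like cells and of -0.54 in B cell-like cells. Yars had one of 1.83 in intermediate granulocyte-like cells and of -0.51 (-1.01 to -0.01) in B cell-like cells. Yars2 had one of 1.25 in intermediate granulocyte-like cells and of -1.53 (-3.33 to -0.01) in macrophage-like cells, the latter from 16 and 5 UMIs. No library was far from others of its group, since each group has 1.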

How the results depend on the processing

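No paired analysis was possible because each condition has 1 library, and for the same reason no replicate could be left out. The main log2 ratio of the cytosolic sum, 0.82, was 0.81 with no doublet removal, 0.77 as a mean over cells, 0.73 thinned and 0.72 class-standardized. That of the mitochondrial sum, -0.72, was -0.74 with no cell filter and as a mean over cells, -0.75 thinned and -0.60 class-standardized, and it turned to 0.12 without Lars2. The medians ranged from 0.83 to 0.95 (cytosolic) and from 0.18 to 0.38 (mitochondrial). At a log2 size of 1, 10 of the 16 cytosolic and 0 of the 5 mitochondrial genes past 0.5 remained. Of 58 class medians per set under other clusterings, 57 stayed inside the main interval. For a median this interval covers the spread of ratios among the member genes, not counting error, and it was wide. With no doublet removal, the mitochondrial median of intermediate granulocyte-like cells went from 0.85 to 0.45. The cytosolic median of immature monocyte-like cells went from 1.01 to 0.65, and both counted as inside. No cytosolic one changed sign, while 12 mitochondrial ones did, in 4 classes whose main intervals held 0: basophil- or mast cell-like (main 0.09, range -0.16 to 0.11), mature PMN-like (-0.08, -0.08 to 0.12), immature monocyte-like (-0.06, -0.16 to 0.07) and macrophage-like cells (-0.15, -0.21 to 0.21). Those outside the interval were the cytosolic median of immature monocyte-like cells without cell cycle regression (1.13, main 1.01) and the mitochondrial median of mature monocyte-like cells with no alignment (0.65, main 0.33). In 12 combinations of class and clustering no class with enough cells was found. Leaving out Lars2 or Mars, and clustering without 61 genes that differ between the libraries, were chosen after seeing the data. Depth limits the mitochondrial genes within small classes, and no value here has a replicate error.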

Other observations

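Cluster Q, which stayed unnamed and was led by Gm26917, Gria3 and Kcnq5, had 511 CPM of mitochondrial synthetase UMIs without Lars2 in DMSO and 554 CPM in DAB, above every named class. Of this, Fars2, the phenylalanine enzyme, had 201 UMIs or 251 CPM in DMSO and 395 UMIs or 263 CPM in DAB. In the other 18 clusters with enough cells Fars2 ran from 21.5 to 60.8 CPM in DMSO. Fars2 spans 608.9 kb, the longest of the 36 genes. The cells of cluster Q had a median of 2589 UMIs in DMSO and 3859 in DAB. The Lars2 log2 ratio in this cluster was -0.15, the smallest fall of the 19 clusters.

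Further genes abundant in cluster H, chosen after their values were seen, were lower in DAB as Lars2 was. Cmss1 went from 7350 to 4598 CPM (log2 ratio -0.68), Camk1d from 467 to 282 CPM (-0.73) and Gphn from 513 to 285 CPM (-0.85), while Cdk8 went from 6135 to 4838 CPM (-0.34).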
